A study of Mus musculus with 4 samples.

Results

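Kcnn4 and Kcnn3 encode calcium-activated potassium channels, and Atp1b1 encodes a beta subunit of the sodium-potassium pump. The genes were taken by symbol from RNA-seq gene tables of mouse keratinocytes, where each symbol had 1 row, so that 3 of 13102 genes are described. They were chosen by their scaled counts across these same libraries, so their levels and ratios are a description and carry no test. The cells were primary epidermal keratinocytes, which build the epidermis, from neonatal C57BL/6 mice, and were cultured for 48 h in 154CF medium with the HKGS kit. The groups were untreated wild-type (WT) cells and 3 groups given interleukin-17A (IL-17A), an inflammatory cytokine, at 100 ng/mL for 8 h (WT, Il17rc knockout or KO, and Il17rd KO). Both deleted genes encode receptors of the IL-17 receptor family, and the study's title names Il17rd as an alternative IL-17A receptor. Each group had 1 library, so differences have no replicate check and carry no p-value. The number of mice behind a library is not given. Untreated knockout cells were not analysed here, so what a deletion does by itself and what it does to the IL-17A response cannot be told apart. Where 4 values follow each other, the order of libraries is untreated WT, treated WT (called IL-17A WT), Il17rc KO, Il17rd KO.

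Calcium-activated potassium channels of the KCNN family open when cytosolic calcium rises, because calmodulin bound to the channel takes up calcium, and they do not need a change in membrane voltage. Kcnn4 encodes the intermediate-conductance channel KCa3.1, known mainly from blood and epithelial cells. Kcnn3 encodes the small-conductance channel KCa2.3 (SK3), known from neurons, endothelium and smooth muscle. Potassium leaving through such channels makes the inside of the cell more negative, which favours calcium entry. The sodium-potassium pump restores the potassium gradient, with a catalytic alpha subunit and a beta subunit, such as that of Atp1b1, that brings it to the membrane.

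The coding sequences of Kcnn4 and Kcnn3 are shown where they are most alike, because reads must be told apart there and because the stretch lies in the part of the protein that binds calmodulin. Capitals mark the longest run of bases shared by the coding sequences in GENCODE M21 (GRCm38), 22 bases long, at coding bases 886 to 907 of 1275 in Kcnn4 and 1666 to 1687 of 2196 in Kcnn3.
Kcnn4 coding strand: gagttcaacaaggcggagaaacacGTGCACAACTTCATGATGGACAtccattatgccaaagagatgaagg
Kcnn3 coding strand: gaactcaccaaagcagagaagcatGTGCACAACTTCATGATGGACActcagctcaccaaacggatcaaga
None of the 3 genes had a near-identical copy elsewhere in the annotation, by a limit of 95% identity over 50% of either transcript.

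Kcnn4 lies on chr7:24370263-24386690 (plus strand, GRCm38), with 7 merged exons that cover 5115 bases. Kcnn3 lies on chr3:89520164-89675132 (plus strand), with 8 merged exons of 10451 bases in all. Atp1b1 lies on chr1:164437109-164458355 (minus strand), with 7 merged exons of 3081 bases. At its end Atp1b1 shares 575 exon bases, 18.7% of its own, with Nme7 on the opposite strand. The strand setting of the counting is not given, so reads in that overlap could belong to either gene. Nme7 itself had 388, 405, 402 and 442 counts, and did not follow the pattern of Atp1b1 described here.

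The stretch just before the Kcnn4 start is shown because Kcnn4 had the largest ratio of the 3 genes. It is the 250 bases before the start in RefSeq (GRCm38.p6), chr7:24370013-24370262 on the plus strand, and capitals mark a GC box, GGGCGG, on the reverse strand.
Kcnn4 promoter: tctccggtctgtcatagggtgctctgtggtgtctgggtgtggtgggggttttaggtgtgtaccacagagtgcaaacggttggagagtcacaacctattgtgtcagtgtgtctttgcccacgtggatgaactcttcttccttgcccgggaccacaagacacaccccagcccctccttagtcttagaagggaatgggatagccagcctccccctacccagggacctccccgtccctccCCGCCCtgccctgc
The Kcnn4 window held 6 CpG sites, as did the median RefSeq window, the Kcnn3 window held 10 and the Atp1b1 window held 24. On either strand, with overlaps allowed, GGGCGG occurred once before Kcnn4, at 2 places before Atp1b1 and not before Kcnn3, against 32.7% of 32851 windows of the same length with at least 1. None of the 3 windows held TGANTCA (AP-1, in 6.75% of windows), TGACGTCA (CRE, 1.55%), a 10-letter NF-kB motif (0.356%), CCGGAAGT (ETS, 2.88%), TTCAGCACC (REST, 0.301%) or TATAAA (a core promoter box, 12.4%). The absence says only that these motifs are not in these windows.

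The libraries held between 19711866 and 19904695 counts. Il17rd, the check of its own knockout, had 5 counts in Il17rd KO against 265 in IL-17A WT. Il17rc had 439 counts in Il17rc KO against 1152 in IL-17A WT and 2729 in untreated WT, so the transcript was reduced and still counted in that library. The deleted exons are not given. Libraries also differed in sex-linked genes: Ddx3y, on the Y chromosome, had 654, 233, 749 and 2 counts, and Xist had 2420, 4750, 2668 and 8513. The part of sex, or of the mix of mice, in the values of the 3 genes was not tested. All 8 keratinocyte markers examined, such as Krt5 and Krt14, were measured, with summed levels between 33033 and 46168 CPM (counts relative to the TMM-scaled library size). Most of that sum came from Krt5 and Krt14, keratins of basal cells. The differentiation keratins Krt1 (48645, 756, 12388 and 22536 counts) and Krt10 (11590, 220, 2220 and 3635 counts) were called lower with IL-17A in WT cells and higher in both knockouts than in IL-17A WT, opposite to Kcnn4. The other 6 markers were not called in these comparisons. The part of differentiation in the values of the 3 genes was not tested.

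Kcnn4, the intermediate-conductance channel, was low in untreated WT and high in IL-17A WT. Its count was 48 in untreated WT and 2745 in IL-17A WT, with 182 in Il17rc KO and 158 in Il17rd KO. In CPM these were 2.50 (exact 95% Poisson interval 1.85 to 3.32), 140.3 (135 to 146), 9.08 (7.81 to 10.5) and 7.69 (6.54 to 8.99). IL-17A WT stood alone at the top, the knockouts lay far below it with overlapping intervals, and untreated WT was lowest. These and all intervals given here cover counting error only, and reads that lack molecular identifiers may be copies of one molecule. In bulk RNA, fewer cells with a transcript and less transcript per cell cannot be told apart.

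**Figure D1:**
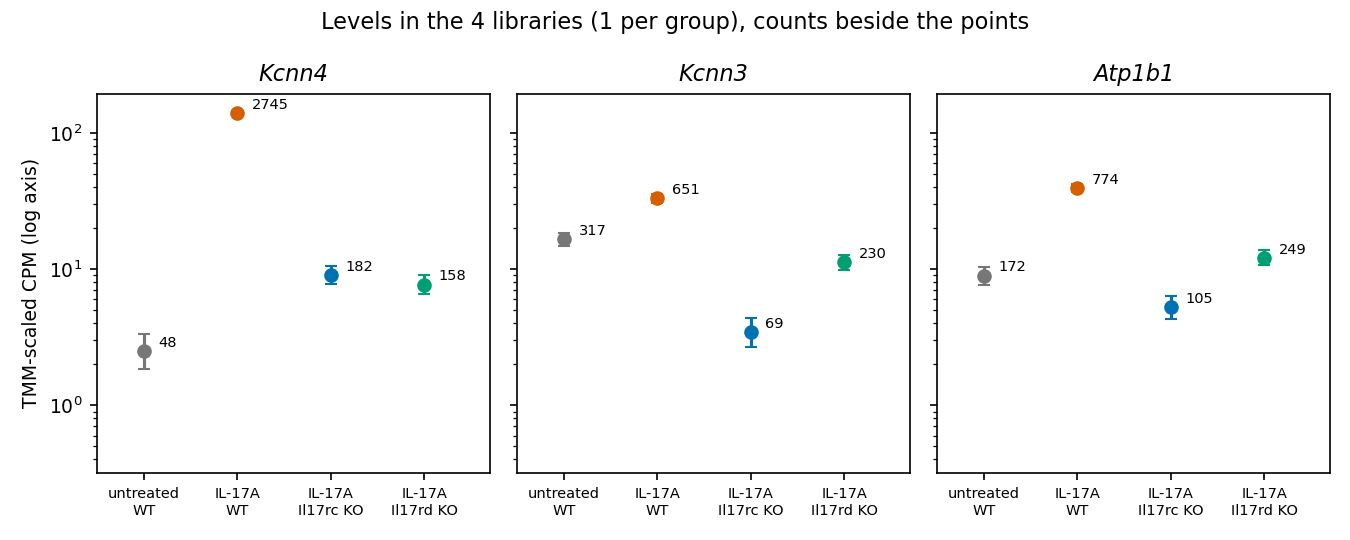
TMM-scaled CPM of Kcnn4, Kcnn3 and Atp1b1 on a log axis in the 4 libraries, 1 per group; bars are exact 95% Poisson intervals and the numbers beside the points are counts. All 3 genes were highest in IL-17A WT, and Kcnn4 alone of the 3 was lowest in untreated WT while the others were lowest in Il17rc KO.

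As a ratio of scaled counts, Kcnn4 was 56.0-fold higher with IL-17A than without in WT cells (exact 95% interval 42.1 to 76.2), the 9th largest log2 ratio of 12934 genes. It was 15.5-fold lower in Il17rc KO than in IL-17A WT (13.3 to 18.1) and 18.2-fold lower in Il17rd KO (15.5 to 21.5). Both knockouts stayed above untreated WT, at 3.62-fold (2.62 to 5.09) in Il17rc KO and 3.07-fold (2.21 to 4.34) in Il17rd KO. Between the knockouts the ratio of Il17rd KO to Il17rc KO was 0.848, with an interval of 0.681 to 1.05 that includes equal levels. The knockouts could not be told apart for Kcnn4 at this depth.

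A rule of size stood in for a test: a gene was called higher or lower where the ratio reached 2-fold and its interval left out 1. All 3 genes were called higher with IL-17A in WT cells, against a background of 8.97% of the 12934 genes. All 3 were called lower in Il17rc KO than in IL-17A WT, where 4.84% of genes were, and all 3 were lower in Il17rd KO, where 3.73% were. Between the knockouts 2 of the 3, Kcnn3 and Atp1b1, were called higher in Il17rd KO, against 2.75% of genes, and 0 of the 3 lower, against 1.49%. These contrasts were in view when the genes were chosen, so the counts repeat the choice. The first 3 comparisons share the IL-17A WT library, so a high value there enters all 3.

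**Figure D2:**
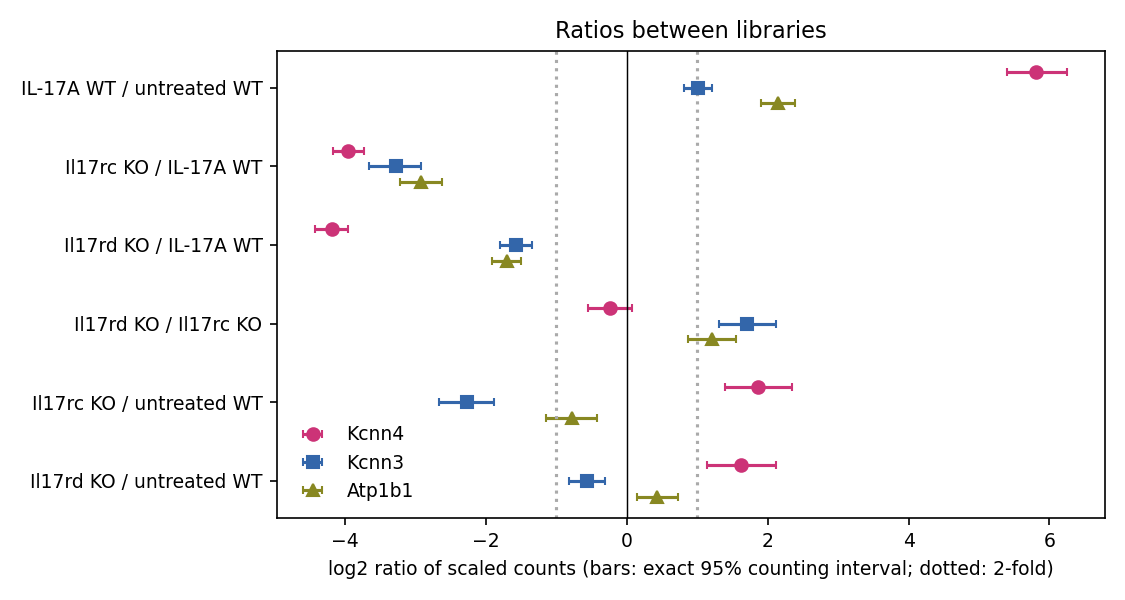
Log2 ratios of scaled counts for 6 pairs of libraries, with exact 95% counting intervals as bars and 2-fold marked by dotted lines. Kcnn4 was 56.0-fold higher with IL-17A in WT and had an interval across 0 between the knockouts, where Kcnn3 and Atp1b1 lay to the right of the 2-fold line.

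Kcnn3, the small-conductance channel, behaved differently from Kcnn4 in the size of the ratios and in the order of the knockouts. Its count was 317 in untreated WT and 651 in IL-17A WT, with 69 in Il17rc KO and 230 in Il17rd KO. The levels were 16.5 CPM (14.8 to 18.5), 33.3 (30.8 to 35.9), 3.44 (2.68 to 4.35) and 11.2 (9.80 to 12.7). No pair of these intervals overlapped, and Il17rc KO was the lowest library. The ratio of IL-17A WT to untreated WT was 2.01 (1.76 to 2.31), at the edge of the 2-fold rule, and between 2.01 and 2.08 under the scalings tried.

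The larger ratios of Kcnn3 were in Il17rc KO. It was 9.67-fold lower there than in IL-17A WT (7.53 to 12.6) and 4.81-fold lower than in untreated WT (3.69 to 6.33). Il17rc KO cells given IL-17A thus held less Kcnn3 transcript than WT cells given none. In Il17rd KO the gene was 2.97-fold lower than in IL-17A WT (2.55 to 3.47) and 1.48-fold lower than in untreated WT (1.24 to 1.76), the latter under 2-fold. Il17rd KO exceeded Il17rc KO 3.25-fold (2.48 to 4.32).

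Per length of merged exons, the leading KCNN gene changed between libraries. The FPKM (counts relative to library size and exon length) of Kcnn4 was 0.489, 27.4, 1.77 and 1.501, and that of Kcnn3 1.58, 3.18, 0.329 and 1.07. Kcnn4 made up 23.6% of the summed FPKM of the pair in untreated WT (exact 95% binomial interval 18.3 to 29.6), so Kcnn3 led there. The share of Kcnn4 was 89.6% in IL-17A WT (88.8 to 90.4), 84.3% in Il17rc KO (80.3 to 87.8) and 58.4% in Il17rd KO (53.2 to 63.3). By FPKM, Kcnn4 led in each of the 3 libraries that received IL-17A, by least in Il17rd KO. By raw counts, without the correction for length, its share in Il17rd KO was 40.7% and Kcnn3 led there. The FPKM values follow the merged exons, 5115 bases for Kcnn4 and 10451 for Kcnn3. The longest coding transcripts have 1990 and 2884 bases, so which gene leads in Il17rd KO depends on the length used.

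A ratio within a library does not depend on scaling between libraries. The ratio of Kcnn4 to Kcnn3 was 27.8 times that of untreated WT in IL-17A WT (20.2 to 39.0). In Il17rc KO it was 17.3 times (11.3 to 26.9) and in Il17rd KO 4.53 times (3.11 to 6.68). The ratio in Il17rc KO was 3.83 times that in Il17rd KO (2.69 to 5.50). Unequal change of the genes is all that such a ratio shows.

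**Figure D3:**
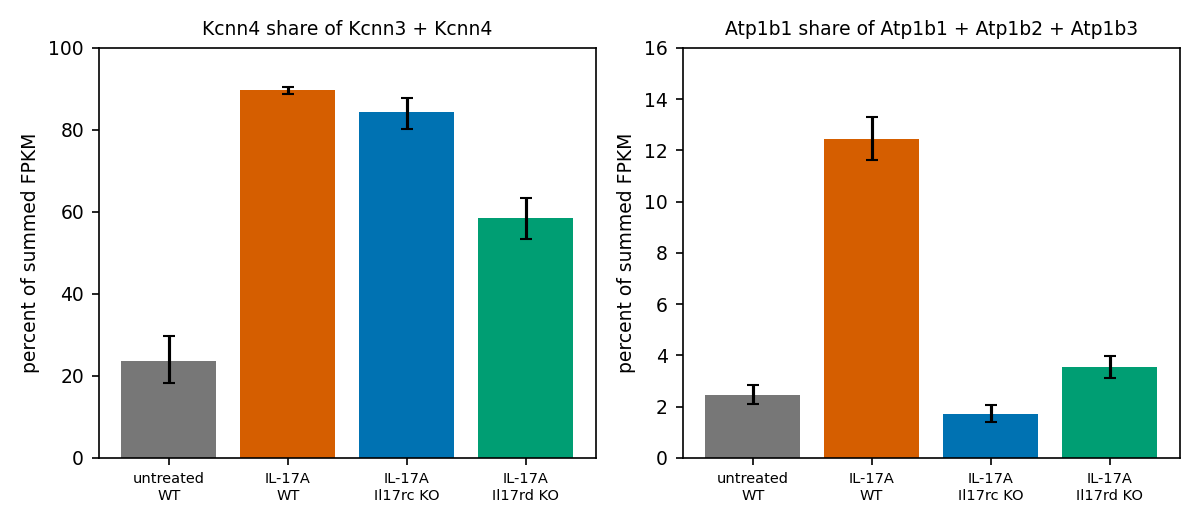
Share of Kcnn4 in the summed FPKM of Kcnn3 and Kcnn4 (left) and of Atp1b1 in that of Atp1b1, Atp1b2 and Atp1b3 (right), in percent, per library; bars start at 0 and error bars are exact 95% binomial intervals. The Kcnn4 share was 23.6% in untreated WT and above 50% in the other libraries, and the Atp1b1 share was 12.4% in IL-17A WT and below 4% elsewhere.

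Among potassium channel pore genes, 14 were measured: 3 of the KCNN family and 11 of 71 others listed. Of the 11 listed calcium-activated channel genes and their subunits, Kcnn1, another small-conductance channel, was the only one measured besides Kcnn4 and Kcnn3. Kcnn4 ranked 12th of the 14 by FPKM in untreated WT and made up 0.644% of their summed FPKM of 75.9. In IL-17A WT it ranked second, behind the two-pore-domain channel Kcnk1, and made up 25.2% of a sum of 108. In the knockouts it ranked 5th, with 1.92% in Il17rc KO and 1.76% in Il17rd KO. Kcnk1, a background channel, led every library at 47.1, 61.4, 68.7 and 56.1 FPKM and was not called in any of the first 3 comparisons. Kcnn3 ranked 6th, 5th, 11th and 7th in the same order of libraries.

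**Figure D4:**
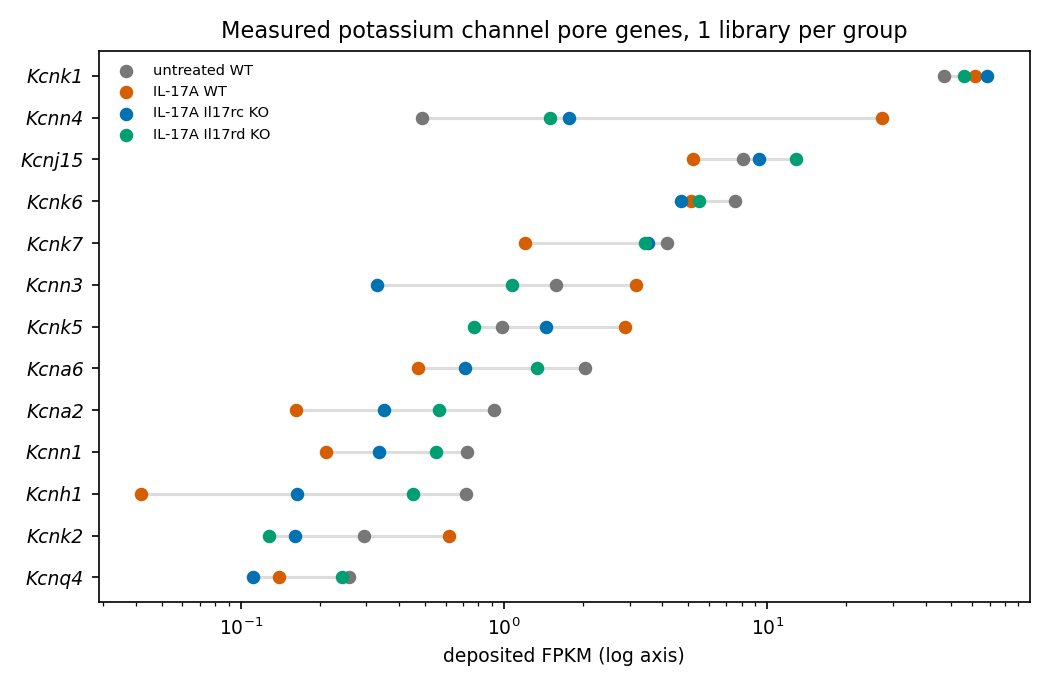
Deposited FPKM on a log axis for 13 of the 14 measured potassium channel pore genes, with 1 point per library and a grey line over the range of each gene. Kcnn4 ranged from 0.489 FPKM in untreated WT to 27.4 in IL-17A WT, while Kcnk1 stayed between 47.1 and 68.7.

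Other potassium channels were called in both directions with IL-17A in WT cells. Kcnn1 was called lower there, with 64, 19, 31 and 52 counts. Of the 10 other pore genes that reached a mean of 1 CPM, 2 were called higher (background 8.97%) and 5 lower (background 10.7%). Their median log2 ratio was -0.94 against 0.00 over all genes. The 2 called higher were the two-pore-domain channels Kcnk5 (log2 ratio 1.53) and Kcnk2 (1.02). Those called lower included the voltage-gated channels Kcnh1 (-3.72), Kcna2 (-2.44) and Kcna6 (-2.06) and the two-pore-domain channel gene Kcnk7 (-1.72). Both measured accessory subunits in the rule, Kcnab2 (-1.16) and Kcnab3 (-1.24), were called lower too.

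Against IL-17A WT, 3 of the 10 were called higher and 1 lower in Il17rc KO (median log2 ratio 0.54, against 0.04 over all genes), and 6 higher and 2 lower in Il17rd KO (1.21, against 0.01). The background of genes called higher was 6.22% in Il17rc KO and 6.27% in Il17rd KO, and that of genes called lower 4.84% and 3.73%. Kcnk2 was called lower in both knockouts, at -1.82 in Il17rc KO and -2.11 in Il17rd KO. Kcnk5 had 64, 192, 99 and 54 counts. It was called lower in Il17rd KO (-1.86), and its ratio of -0.98 in Il17rc KO was just short of the rule. Kcnh1, an ether-a-go-go channel, ran opposite to Kcnn4, with 101, 6, 24 and 68 counts.

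Atp1b1, the pump subunit, was highest in IL-17A WT and lowest in Il17rc KO. Its count was 172 in untreated WT and 774 in IL-17A WT, with 105 in Il17rc KO and 249 in Il17rd KO. The levels were 8.97 CPM (7.68 to 10.4), 39.5 (36.8 to 42.4), 5.24 (4.28 to 6.34) and 12.1 (10.7 to 13.7). The intervals of the 4 libraries did not overlap, and the order of the libraries at the bottom differed from that of Kcnn3 in that untreated WT lay below Il17rd KO.

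Atp1b1 was 4.41-fold higher with IL-17A than without in WT cells (3.73 to 5.23). It was 7.55-fold lower in Il17rc KO than in IL-17A WT (6.15 to 9.35) and 3.26-fold lower in Il17rd KO (2.82 to 3.78). Il17rd KO exceeded Il17rc KO 2.32-fold (1.84 to 2.94). Against untreated WT, neither knockout reached 2-fold: Il17rc KO was 1.71-fold lower (1.34 to 2.21) and Il17rd KO 1.35-fold higher (1.11 to 1.65).

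Atp1b1 was a minor beta subunit throughout. Its FPKM was 2.91, 12.8, 1.70 and 3.93, and that of Atp1b3, another beta subunit, was 39.2, 7.03, 57.5 and 27.2 times as high. Its share of the summed beta subunit FPKM was 2.46% (2.11 to 2.85) in untreated WT, 12.4% (11.6 to 13.3) in IL-17A WT, 1.70% (1.40 to 2.06) in Il17rc KO and 3.53% (3.11 to 3.99) in Il17rd KO. The share in IL-17A WT was the highest, and Atp1b3 supplied most beta subunit transcript even there. Against the other beta subunits, Atp1b1 was 5.66 times as high in IL-17A WT as in untreated WT (4.77 to 6.75).

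Other pump genes were called in both directions. Of 18 listed pump genes and regulators 7 were measured, and with Atp1b1 included 2 were called higher and 2 lower in IL-17A WT (8.97% and 10.7% of all genes). The median log2 ratio of the 7 was -0.66, against 0.00 over all genes. The other gene called higher was Fxyd5, a small pump-associated protein also called dysadherin, at 2.01. It was lower again in Il17rc KO (-1.48) and in Il17rd KO (-1.52). Called lower were Fxyd6 (-4.80), from the same family, with 271 counts in untreated WT and 8 in IL-17A WT, and the beta subunit Atp1b2 (-3.05). Both were called higher in Il17rd KO than in IL-17A WT, and Fxyd6 alone in Il17rc KO.

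Genes that move calcium were called at these shares. Of 19 measured genes of calcium entry and store release, 0 were called higher and 3 lower in IL-17A WT, where 8.97% and 10.7% of all genes were (median log2 ratio -0.22, against 0.00 over all genes). These were Stim1, the calcium sensor of the endoplasmic reticulum (-1.47), and the TRP channels Trpv2 (-1.92) and Trpv6 (-1.19). Stim1 had 6195, 2288, 5280 and 4203 counts, lowest in IL-17A WT, where Kcnn4 was highest. In Il17rc KO against IL-17A WT, Stim1 (1.17), Trpv6 (1.17) and the ATP-gated channel P2rx7 (1.53) were called higher and the store-operated channel Orai2 (-1.42) lower. Of all genes, 6.22% were called higher and 4.84% lower there. In Il17rd KO, Trpv2 (1.05) and Trpv6 (1.13) were called higher and 0 of the list lower, against 6.27% and 3.73% of all genes. Of 7 measured genes of calcium removal, 0 were called higher and 2 lower in IL-17A WT, Atp2c2 (-1.25) and Slc8b1 (-1.42), and neither knockout had a call.

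The calmodulin genes, whose product is the calcium sensor of both channels, included Calm2 and Calm3, which were not called in IL-17A WT, at log2 ratios of 0.81 and 0.53. Of 5 calmodulin and calmodulin-like genes that reached a mean of 1 CPM, 0 were called higher and 2 lower there. The shares of all genes were 8.97% and 10.7%. Called lower were the epidermal calmodulin-like genes Calm4 (-2.43) and Calml3 (-4.12). Against IL-17A WT they were called higher in Il17rc KO (2.39 and 3.98) and in Il17rd KO (2.62 and 3.39). Of all genes, 6.22% and 6.27% were called higher in these comparisons. Calml3 had 473, 26, 449 and 305 counts. Of 11 kinases, phosphatases and partners that act on KCNN channels, Nme1, a nucleoside diphosphate kinase, was called higher in IL-17A WT (1.23). The other 10 were not called in that comparison, where 8.97% of all genes were called higher and 10.7% lower. None of the 11 was called in either knockout against IL-17A WT. Of all genes, 6.22% were called higher and 4.84% lower in Il17rc KO, and 6.27% and 3.73% in Il17rd KO.

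Chloride and sodium pathways, which accompany potassium flow in epithelia, were described by the same lists. Of 21 chloride channels and cotransporters, 2 were called higher in IL-17A WT, the volume-regulated channel subunit Lrrc8c (1.27) and the exchanger Clcn5 (1.37), and 1 lower, the anoctamin Ano9 (-3.20), where 8.97% and 10.7% of all genes were. All 3 were called the other way in both knockouts against IL-17A WT, with 1 of the 21 higher and 2 lower in each. Of all genes, 6.22% were called higher and 4.84% lower in Il17rc KO, and 6.27% and 3.73% in Il17rd KO. Of 6 sodium entry genes, 0 were called higher and 4 lower in IL-17A WT, against 8.97% and 10.7% of all genes. The 4 were the epithelial sodium channel subunits Scnn1a (-2.33), Scnn1b (-1.80) and Scnn1g (-1.42) and the kinase Sgk1 (-1.81). In the knockouts, 3 were called higher in Il17rc KO (6.22% of all genes) and 1, Scnn1a (1.28), in Il17rd KO (6.27%).

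Transcription factors known to act on KCNN genes, AP-1 as an activator and REST as a repressor, were examined as a list of 9. The AP-1 genes Fosl1 (2.34) and Fosb (1.01) were called higher in IL-17A WT, and Fosl2 (-1.23) and Jun (-1.10) lower. Of all genes, 8.97% were called higher and 10.7% lower there. Fosl1 had 105, 552, 306 and 161 counts. It was called lower in Il17rd KO than in IL-17A WT (-1.83) and not in Il17rc KO. Jun had 5921, 2816, 7453 and 5978 counts and was called higher than in IL-17A WT in both knockouts (1.37 in Il17rc KO and 1.02 in Il17rd KO). Rest was not called, at 0.34 in IL-17A WT, and at 0.09 and 0.16 in Il17rc KO and Il17rd KO against it.

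Kcnn4 and Kcnn3 are also expressed by blood, endothelial, smooth muscle and nerve cells, so markers of these cells were measured. Of 8 T cell markers and 6 erythroid markers 0 were measured. Of 10 macrophage and Langerhans cell markers 5 were measured, with summed levels of 82.7, 41.9, 33.9 and 55.3 CPM. Of these, Lyz2 (796, 396, 67 and 348 counts), Csf1r (94, 48, 17 and 44) and Laptm5 (96, 26, 7 and 34) were called lower in Il17rc KO than in IL-17A WT and higher in Il17rd KO than in Il17rc KO, as Kcnn3 and Atp1b1 were. Unlike the 3 genes described, they were highest in untreated WT. Of all genes, 4.84% were called lower in Il17rc KO than in IL-17A WT and 2.75% higher in Il17rd KO than in Il17rc KO. Of the remaining macrophage and Langerhans cell markers, H2-Eb1 went the other way in Il17rc KO, called higher than in IL-17A WT with 41 against 10 counts. Cd68 was not called in that comparison, with 547 against 340 counts. Of 6 smooth muscle markers 3 were measured, at 537, 282, 221 and 358 CPM, and 5 of 6 Schwann cell and nerve markers, at 128, 108, 111 and 101 CPM. The nerve marker Tubb3 was called higher in IL-17A WT than in untreated cells, with 417, 934, 1193 and 774 counts. These 3 sums were lower in IL-17A WT, where Kcnn4 was highest, than in untreated WT. Of 6 endothelial markers 3 were measured, at 15.4, 18.3, 9.23 and 11.8 CPM, in the same order of libraries as Kcnn3. One of them, Kdr, was called higher in IL-17A WT (log2 ratio 1.04) and lower in Il17rc KO (-1.46) and Il17rd KO (-1.31), while Vwf was called lower in IL-17A WT, with 96, 15, 27 and 27 counts. The smooth muscle marker Tagln had 35, 105, 27 and 55 counts, highest in IL-17A WT. Most of the smooth muscle sum came from Acta2, at 275 CPM in IL-17A WT. Of the 3 smooth muscle markers, 1 was called higher and 0 lower in IL-17A WT (8.97% and 10.7% of all genes). In each knockout, 2 of the 3 were called lower than in IL-17A WT (4.84% of all genes in Il17rc KO and 3.73% in Il17rd KO). The part of macrophages, endothelial, smooth muscle or nerve cells in the values of the 3 genes was not tested. Of 10 fibroblast markers 8 were measured, at 69.8, 9.10, 36.6 and 50.4 CPM, all 8 called lower in IL-17A WT (10.7% of all genes). Against IL-17A WT, 6 of the 8 were called higher in Il17rc KO (6.22% of all genes) and 7 in Il17rd KO (6.27%). For mast cells 1 of 5 markers was measured, Kit, at 44.1 to 59.4 CPM, and for melanocytes 7 of 7, at 1592 to 2430 CPM. No measured marker was at 0 counts in any library. All 13102 genes exceeded 1 CPM in at least 2 libraries, so markers with few reads may be missing from those measured.

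Genes near Kcnn4 on chromosome 7 were examined by windows chosen after values were seen. Of 19 measured genes within 250 kb, 3 were called higher and 3 lower in IL-17A WT, against 8.97% and 10.7% of all genes. The receptor of urokinase, Plaur, 75.8 kb away, had 115, 1834, 443 and 237 counts. Cadm4, a cell adhesion gene 95.3 kb away, had 198, 1142, 312 and 411 counts. Both were highest in IL-17A WT, as was Kcnn4. Lypd5, the nearest of the 6 called genes at 15.2 kb, ran the other way, with 3967, 1044, 2458 and 2105 counts. Around Kcnn3, 1 of 17 measured genes within 250 kb was called higher and 4 lower against the same background, and around Atp1b1 0 of 4 in either direction.

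Across the 4 libraries, the genes nearest to each of the 3 by Euclidean distance of centred log2 CPM were listed as a description, with 5 for each. For Kcnn4 they were Gpr50, an orphan receptor (distance 0.50), the neutrophil chemokine Cxcl1 (0.72), the chromatin protein gene Hmga2 (0.84), the gelatinase Mmp9 (0.88) and Csf3, the granulocyte growth factor G-CSF (0.89). Gpr50 had 11, 462, 40 and 27 counts. Its ratio of Il17rd KO to Il17rc KO, 0.659 (0.389 to 1.10), had an interval that includes equal levels, as that of Kcnn4 had. For Kcnn3 they were the skeletal actin Acta1 (0.13), the lymphatic growth factor Vegfc (0.36), the signalling protein Wnt7a (0.40), Rtn1 (0.50) and the chemokine Cx3cl1 (0.50), all lowest in Il17rc KO. Acta1 rests on 34, 75, 7 and 25 counts. For Atp1b1 they were the transcription factor Foxc2 (0.18), Hecw2 (0.24), Ttc9 (0.29), the collagen Col5a3 (0.37) and Slitrk6 (0.45).

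Among themselves, Kcnn3 and Atp1b1 lay closest, at a distance of 1.09. Kcnn4 and Atp1b1 were 2.76 apart, and Kcnn4 and Kcnn3 were 3.69 apart. The channels were thus the least alike pair of the 3 across these libraries.

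**Figure D5:**
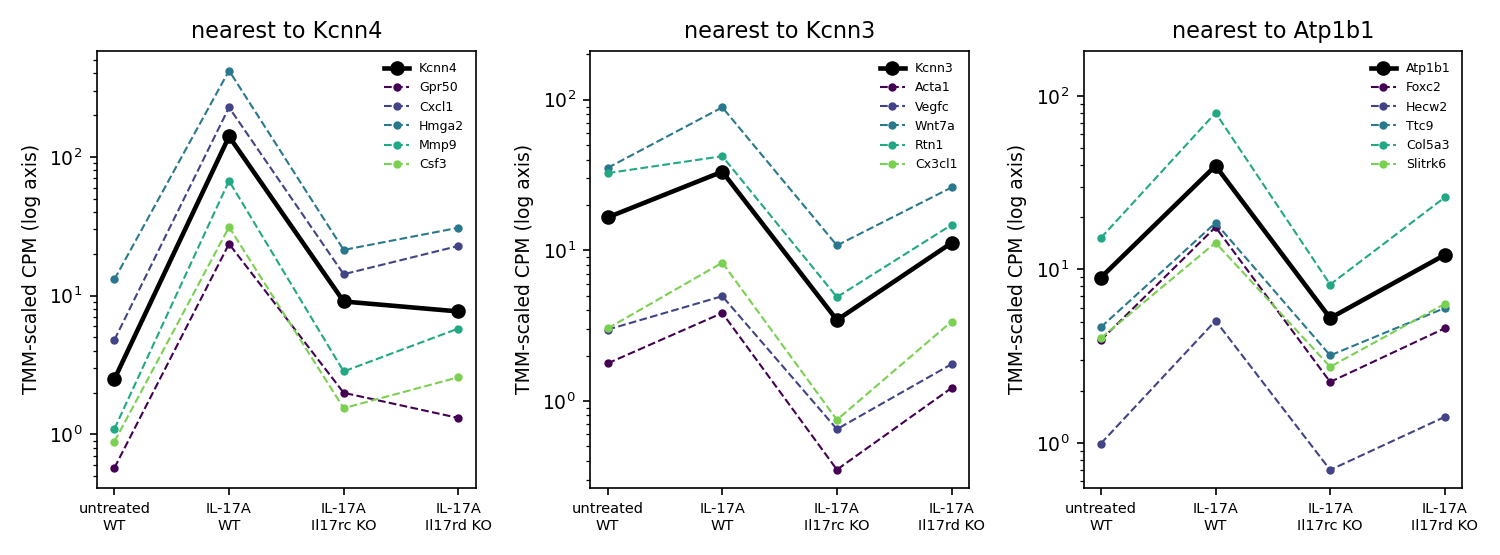
TMM-scaled CPM on a log axis in the 4 libraries for Kcnn4, Kcnn3 and Atp1b1 (black) and the 5 genes nearest to each in centred log2 profile (dashed); lines join the values of 1 gene and imply no order of groups. The genes near Kcnn3 and Atp1b1 were lowest in Il17rc KO, and those near Kcnn4 were lowest in untreated WT.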

How the data were processed

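Counts and FPKM values per gene were deposited by the authors for 4 libraries, 1 per group. The submitters' processing notes name Trim Galore 0.4.4, HISAT2, Subread with featureCounts, edgeR and build mm10. For settings, annotation and strand the sources used here give nothing. Every one of the 13102 genes exceeds 1 CPM in at least 2 libraries. The deposited counts were scaled with TMM (edgeR 4.0.16; factors 0.963, 0.984, 1.01 and 1.04 for untreated WT, treated WT, Il17rc KO, Il17rd KO). Ratios carry exact 95% conditional binomial intervals, and log2 ratios use a prior count of 2. A gene was called at a 2-fold ratio whose interval left out 1, among the 12934 genes whose mean reached 1 CPM. Deposited FPKM served to compare genes.

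The genes and lists were chosen with earlier results of these data known. Named are the 3 genes, Il17rc and Il17rd, called members of each list and up to 4 with the largest log2 ratio, and the 5 nearest profiles. Genes overlapping or near the 3, the sex-linked genes and levels of further list members were named after their values were seen. Positions come from GENCODE M21, promoters from RefSeq, and copies were sought with BLAST+ 2.17.0. Alternatives were other scalings (including DESeq2 1.42.0 size factors), prior counts, filters, a 4-fold rule and Pearson likeness. Results of a few measured genes are not reported here.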

Additional observations from a re-analysis of the deposited data

How the results depend on the processing

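With 1 library per group no replicate could be left out. No paired analysis was possible because each group has 1 library. The ratios of Kcnn4, Kcnn3 and Atp1b1 between libraries kept their direction and their side of the 2-fold rule under all scalings tried, with Kcnn3 at 2.01 to 2.08 in IL-17A WT against untreated WT. Other settings put Kcnn3 just under 2-fold in that comparison. Its log2 ratio was 0.997 with a prior count of 5 and 0.965 by deposited FPKM with 0.1 added. At 4-fold in place of 2-fold, 249 genes were above and 434 below untreated WT in IL-17A WT, 207 and 164 in Il17rc KO than in IL-17A WT, 246 and 114 in Il17rd KO than in IL-17A WT, 74 and 46 in Il17rd KO than in Il17rc KO, 287 and 137 in Il17rc KO than in untreated WT, and 114 and 48 in Il17rd KO than in untreated WT. By raw counts in place of FPKM, the Kcnn4 share was 13.2%, 80.8%, 72.5% and 40.7% in untreated WT, treated WT, Il17rc KO, Il17rd KO, so that the lead in Il17rd KO passed from Kcnn4 to Kcnn3, the longer gene. The Atp1b1 share by raw counts was 3.13%, 15.5%, 2.18% and 4.49%. With Pearson's r in place of distance, 0 of the 5 genes named for Kcnn4, 1 for Kcnn3 and 0 for Atp1b1 were again among the nearest 5. Depth limits genes with few counts, such as Acta1 and Kcnh1, and variation between dishes is not known for any value.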
